A study of Drosophila melanogaster with 3 samples.

Results

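A set of 10 genes of the Drosophila airways, the tracheal system, were examined for binding of Tango in whole embryos: bnl, btl, vvl, knrl, grh, crb, uif, kkv, serp and verm. They were taken by symbol from a list of tracheal branching and tube genes, and they were 10 of the 13968 protein-coding genes annotated on the chromosome arms. The chromatin came from embryos of the strain tgo-GFP, which carries an insertion that makes a tgo-eGFP fusion protein, collected between 0 and 24 h of age. The fusion protein was precipitated with an anti-GFP antibody from chromatin sonicated to 200 to 800 bp. The labels give 3 biological replicates of this 1 group, all from the same donor strain, and each replicate had a thresholded and a longer ranked list of peaks. No untagged or treated embryos entered the lists compared here, so peaks that do not depend on Tango cannot be told apart from those that do. The embryos were whole, so binding in few cells and weak binding in many cells cannot be told apart, and tracheal cells were not separated from the rest.

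Tracheal cells are specified by the bHLH-PAS factor Trachealess, which binds DNA as a pair with Tango, the fly counterpart of ARNT. Tracheal cells then migrate towards sources of the FGF ligand Branchless, which they sense through the FGF receptor Breathless, and the branches later become tubes with an apical membrane and a chitin cable in the lumen. Pairs of Tango with Trachealess or with Single-minded bind a core sequence ACGTG, usually within TACGTG, which also reads CACGTA on the other strand.

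A summit is the position of highest signal in a peak, and a territory is the gene body with 10 kb on either side. Summits of the 3 thresholded lists that lay within 150 bp of one another were joined, and a joined region present in at least 2 of the 3 lists is called a core region. The 10 territories held 9 core regions, in the territories of bnl, grh, crb, kkv and uif. The territories of btl, vvl, knrl, serp and verm held none. None of the 9 core regions had ACGTG in the 100 bp centred on its summit. The windows at the strongest core regions of bnl, crb, uif and kkv are printed to show these stretches, which held 22%, 29%, 20% and 48% G and C over 100 bp, in lower case, with any match on either strand to ACGTG, to GATAA or to TATCGA in capitals. The btl and serp windows, chosen after their values were seen, are printed because they hold TACGTG, shown in capitals on either strand. Only TACGTG is marked in these 2, and the serp window also holds TATCGA, on the other strand and in lower case. All are from dm6 and read 5′ to 3′ on the strand given. The serp window and the kkv window were shortened to leave out annotated untranslated sequence.
bnl intron, chr3R:19831117-19831216, minus strand: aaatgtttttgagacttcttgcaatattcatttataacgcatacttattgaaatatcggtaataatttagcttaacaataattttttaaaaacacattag
crb intron, chr3R:24296021-24296120, plus strand: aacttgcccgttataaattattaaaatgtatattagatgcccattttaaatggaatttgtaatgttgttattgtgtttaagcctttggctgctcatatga
uif territory at sip2, chr2L:6964149-6964248, minus strand: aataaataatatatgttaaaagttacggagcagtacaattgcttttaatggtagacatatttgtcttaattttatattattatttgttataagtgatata
kkv territory at Polr2F, chr3R:5371678-5371724, plus strand: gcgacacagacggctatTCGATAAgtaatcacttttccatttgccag
btl upstream of the first start site, chr3L:14075572-14075671, plus strand: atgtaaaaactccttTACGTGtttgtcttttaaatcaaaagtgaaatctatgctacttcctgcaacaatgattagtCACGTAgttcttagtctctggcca
serp start site, chr3L:19708016-19708074, minus strand: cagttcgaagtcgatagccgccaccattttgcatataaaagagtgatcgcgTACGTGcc

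The thresholded lists held 3617, 4759 and 3027 peaks in replicates 1, 2 and 3. The ranked lists held 35134, 75958 and 33491 peaks, with replicate 2 more than 2 times as long as either other list. Read depths were not used here, so no depth stands behind a single peak. The lists carry the IDR of each peak, the irreproducible discovery rate, which is low for a peak that recurs between paired rankings. A peak passed the threshold at an IDR of 0.01, which equals a score of 830, and a ranked summit below that score is called a candidate. Peaks of a fixed width of 340 bp (350 bp in replicate 3) made up 71.5%, 73.0% and 75.9% of the thresholded lists and nearly all of them had the summit at their centre. The signal of a peak is the authors' value in unstated units. It served here as a rank alone, given as a percentile, the share of that list's peaks with a lower signal. In the text, a region past the threshold has its percentile in the thresholded lists, and a candidate in the ranked lists. Percentiles in the thresholded and the ranked lists are not on the same scale.

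Over the 10 territories, which spanned 389948 bp, 8, 12 and 6 thresholded summits were found in replicates 1, 2 and 3 (8.67 ± 3.06, SD, n = 3). This came to 2.05, 3.08 and 1.54 summits per 100 kb of territory, against 2.62, 3.46 and 2.20 per 100 kb of the genome. The density in the territories was below that of the genome in every replicate, at 0.791 ± 0.0953 times the genome's (SD, n = 3). The 3 lists share regions, so they are not independent counts of these territories. This SD does not cover counting error, and the difference from the genome was not tested. Of the 10 genes, 5 had a core region in the territory, beside 54.9% of all protein-coding genes, and beside 63.7% of the 3201 genes whose territories were as long as those of the members. In the body or the 2 kb upstream, 3 members (bnl, grh and crb) had a core region, beside 23.1% of all genes. In a promoter of its own, taken as 1000 bp before to 200 bp after a start site, only crb of the 10 had one, beside 16.2% of all genes. These shares lie near those of all genes, and no difference was tested. Of the 13 thresholded regions in the territories, 9 were in at least 2 lists, beside 62.2% of all such regions, and 4 were in all 3. Leaving out replicate 2, the longest list, left 4 core regions in 3 territories, of which 1 was in a promoter.

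**Figure D1:**
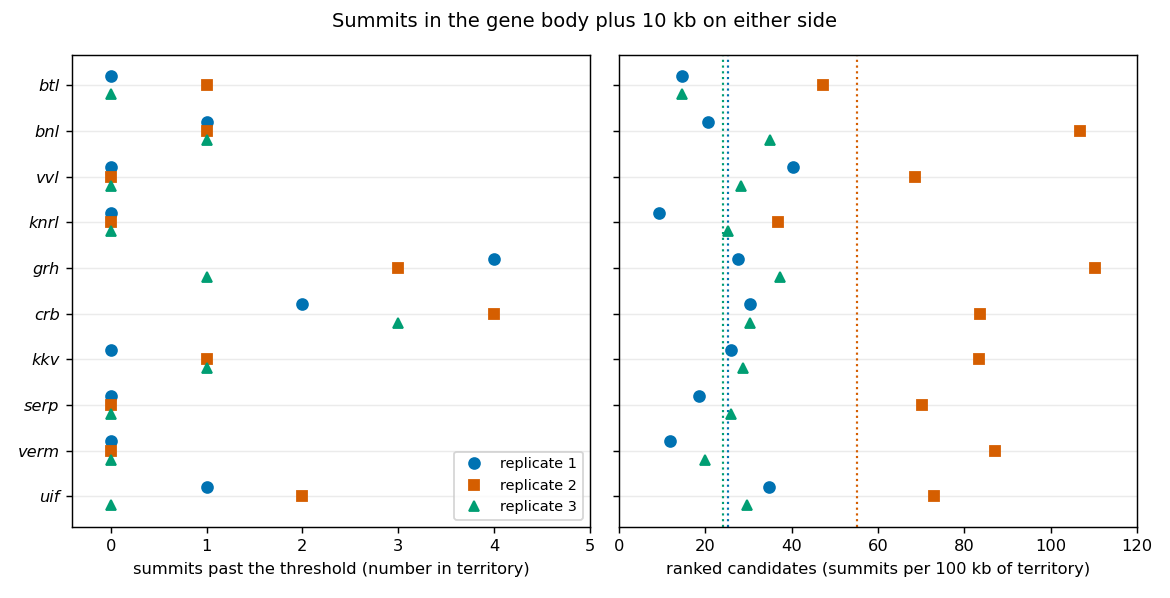
Thresholded summits (left, number in the territory) and all ranked summits (right, per 100 kb of territory) of the 10 genes, with 1 symbol per replicate and dotted lines at each replicate's density over the genome. The grh and crb territories hold the most thresholded summits (up to 4 in a list), vvl, knrl, serp and verm hold none, and replicate 2 has the highest density of ranked summits in every row.

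The ligand bnl (FBgn0014135, 3R, 19794073 to 19836817, minus strand) had 1 core region, in an intron 5650 bp downstream of its start site. It spanned 19830997 to 19831336 with the summit at 19831167, and passed the threshold in all 3 lists with signals of 93.2, 113 and 78.8. Its percentile in the thresholded lists was 51.0, 65.4 and 42.3 (52.9 ± 11.6, SD, n = 3), close to the middle of each list, and its IDR was at most 0.000270. The nearest start site of any coding gene was that of bnl itself, and the window printed above had 22% G and C. The bnl start site itself held only candidates below the threshold, at 27 bp in replicate 2 (percentile 84.3 in the ranked list) and 2 bp in replicate 3 (percentile 83.7), and none in replicate 1. The 62745-bp territory held 13, 67 and 22 ranked summits.

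The receptor btl (FBgn0285896, 3L, 14075772 to 14083229, plus strand) had no core region. Around btl itself, 5 TACGTG matches lay within 1 kb of its start sites, at 14075772 and 14077065. They lay 183 and 122 bp upstream of the first start, in the sequence printed, and 595, 503 and 457 bp upstream of the second. Only replicate 2 had ranked summits there, and none passed the threshold. The one closest to a TACGTG match, 433 bp upstream of the second start, was at the 23.4th percentile with an IDR of 0.857, and the highest, 622 bp upstream of the first start, was at the 82.8th percentile with an IDR of 0.184. In replicates 1 and 3 the btl body held no ranked summit at all, and their summits closest to a btl start site were 9375 and 9374 bp downstream of the second. A count of 3 TACGTG matches in the promoters of 1 gene, a limit chosen after the values were seen, was reached by 2 of the 10 members (btl and serp) and by 0.544% of all protein-coding genes. It was not adjusted for the number of start sites, which was 2 in each of these members.

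**Figure D2:**
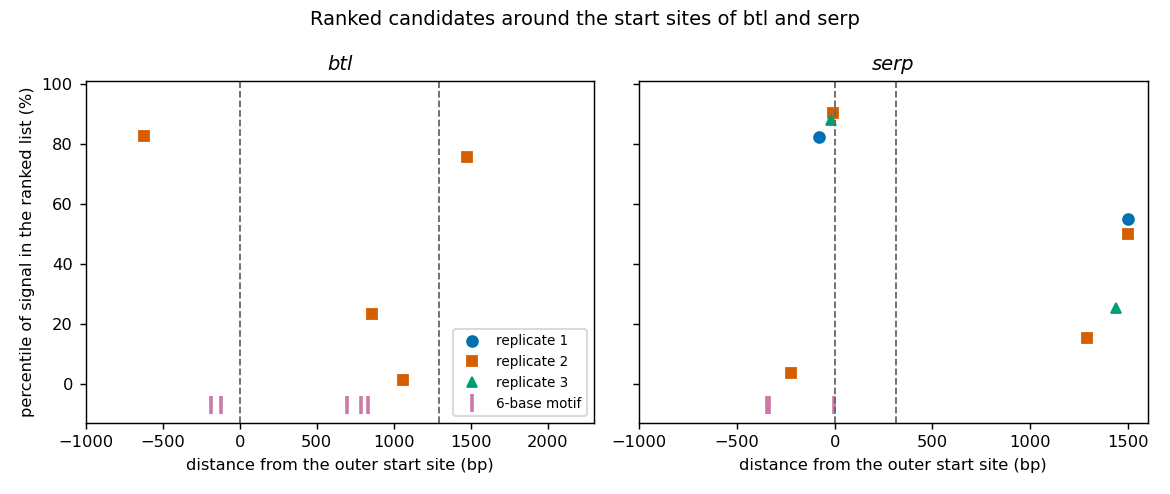
Ranked summits around the start sites of btl (left) and serp (right), by distance from the outermost start site (bp) and percentile of signal in the ranked list, with 1 symbol per replicate, dashed lines at start sites and short bars at TACGTG matches. The btl panel holds summits of replicate 2 alone, while the serp start site has a summit of every replicate between the 82.4th and the 90.5th percentile beside a TACGTG match.

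Among the transcription factors, vvl and knrl had no thresholded summit in any list. For vvl (FBgn0086680, 3L, 6790158 to 6794941, plus strand), a POU-domain factor needed for tracheal cell migration, the strongest candidate present in all 3 ranked lists was 7655 bp downstream of the start site, at 6797813. Its percentiles were 80.9, 67.7 and 75.8, with IDRs of 0.386, 0.412 and 0.722, far above the threshold. Beside the vvl start site replicate 1 had a candidate at 18 bp (percentile 88.1, IDR 0.0289) and replicate 2 at 16 bp (percentile 75.7, IDR 0.659), and replicate 3 had its closest at 770 bp downstream. For knrl (FBgn0001323, 3L, 20597141 to 20620659, minus strand), a nuclear-receptor-type repressor used in branch patterning, 1 candidate recurred in all 3 ranked lists, at 20591290 beyond the far end of the gene. Its percentiles were 58.2, 62.1 and 57.1, with IDRs between 0.497 and 0.859. Other knrl candidates, absent from at least 1 list, reached higher percentiles. The highest of replicate 2 was at 91.1, 1491 bp downstream of the start site (IDR 0.0727). That of replicate 3 was at 89.0, also in an intron (IDR 0.0254). The knrl territory had 9.19, 36.8 and 25.3 ranked summits per 100 kb, against 25.2, 55.2 and 24.1 per 100 kb of the genome.

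The third factor, grh (FBgn0259211, 2R, 17801132 to 17842820, plus strand), encodes Grainy head, which acts in epithelial cells and limits apical membrane growth in the tubes. Its territory held 4, 3 and 1 thresholded summits in replicates 1, 2 and 3, which fell into 3 core regions and 1 region of replicate 1 only. The strongest core region, 17804880 to 17805066 with the summit at 17804938, lay in a grh intron 2071 bp downstream of the nearest of 5 start sites. It passed the threshold in all 3 lists at percentiles of 45.5, 65.8 and 88.3 (66.5 ± 21.4, SD, n = 3), and replicate 3 was the highest. The core region at 17796798, in an intron of Dhit and 4334 bp upstream of grh, passed in replicates 1 and 2 at percentiles of 43.3 and 59.9, and replicate 3 had a candidate there with an IDR of 0.309. The core region at 17844731, in an intron of Orai, a calcium channel gene past the end of grh, passed in replicates 1 and 2 near the bottom of the lists, at percentiles of 12.3 and 11.0, and had an IDR of 0.735 in replicate 3. The region past the threshold in replicate 1 only lay 564 bp upstream of a grh start site, so grh had no core region in a promoter of its own. Replicates 2 and 3 had candidates there, at percentiles of 94.9 and 47.9 in the ranked lists and IDRs of 0.0221 and 0.341.

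Of the genes for apical membrane proteins, crb (FBgn0259685, 3R, 24295078 to 24314541, plus strand), which encodes the polarity protein Crumbs, had 2 core regions within 1 kb of its own start site. The strongest of the territories, 24296015 to 24296143 with the summit at 24296071, lay in the intron 993 bp downstream of the start site. It passed in all 3 lists with signals of 128, 133 and 127 and percentiles of 68.0, 72.8 and 72.7 (71.1 ± 2.75, SD, n = 3), so the replicates placed it alike. A core region in the crb promoter, 24294772 to 24295111 with the summit at 24294942, lay 136 bp upstream of the start site and also passed in all 3 lists. Its percentiles were spread more widely, at 17.5, 55.8 and 5.77 (26.4 ± 26.1, SD, n = 3), with signals of 60.2, 94.95 and 49.98. The third core region, with its summit at 24290140, lay 32 bp upstream of Uck, a neighbouring gene, and 4938 bp upstream of crb. It passed in replicates 2 and 3 at percentiles of 59.1 and 34.6, and replicate 1 had a candidate there with an IDR of 0.657. One more thresholded region, 8192 bp into the gene, passed in replicate 2 only, at a percentile of 48.1, and a TACGTG lay within 150 bp of its summit though outside the summit window.

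For uif (FBgn0031879, 2L, 6972828 to 7010359, minus strand), which encodes the apical transmembrane protein Uninflatable, the 1 core region was 45710 bp from the nearest uif start site, past the far end of the gene. It spanned 6964029 to 6964368 with the summit at 6964199, 125 bp upstream of sip2, and passed in replicates 1 and 2 at percentiles of 51.4 and 49.4. Replicate 3 had a candidate there with an IDR of 0.0300. One more region, with its summit 713 bp upstream of Sumo, passed in replicate 2 only at a percentile of 46.3. In the uif body no list had a summit past the threshold, although the territory held 20, 42 and 17 ranked summits.

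The chitin genes had no core region in their own bodies or promoters. For kkv (FBgn0001311, 3R, 5378093 to 5392866, minus strand), which encodes the chitin synthase of the cuticle and the tracheal lumen, the 1 core region was 21138 bp from its start site. It spanned 5371553 to 5371902 with the summit at 5371728, 67 bp upstream of Polr2F, an RNA polymerase subunit gene, and passed in replicates 2 and 3 at percentiles of 47.2 and 56.7. Replicate 1 narrowly missed the threshold there, with an IDR of 0.0119. No ranked list had a summit in the kkv promoter, which was true of 1 of the 10 members. The share of all genes with none was not computed. The genes serp (FBgn0260653, 3L, 19700977 to 19708015, minus strand) and verm (FBgn0261341, 3L, 19690033 to 19695260, minus strand) encode secreted chitin deacetylases that restrict tube length, and their bodies lie 5716 bp apart, so 14284 bp of their territories were shared. Neither had a thresholded summit.

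At the serp start site a candidate recurred in all 3 ranked lists, 78, 10 and 21 bp upstream of the start at 19708015 in replicates 1, 2 and 3. Its percentiles in the ranked lists were 82.4, 90.5 and 88.1 (87.0 ± 4.16, SD, n = 3), with signals of 35.3, 39.3 and 43.7. They were below the 96.6, 98.2 and 97.4 of the strongest crb core region in the same lists. The serp candidate had IDRs of 0.704, 0.206 and 0.222, so it failed the threshold in every replicate. A TACGTG lay 5 bp upstream of that start, 73, 5 and 16 bp from these summits, in the serp sequence printed above, and 2 more lay 336 and 344 bp upstream. It was the 1 TACGTG of the 75 in the territories with a ranked summit within 150 bp in all 3 lists (1.33%, exact 95% interval 0.0338 to 7.21%), beside 1.83% of the TACGTG matches in the genome. For verm 1 candidate was in all 3 ranked lists, with summits 30, 88 and 235 bp downstream of the start site at 19695260 in replicates 1, 2 and 3. The summits of replicates 1 and 3 were joined only through that of replicate 2, at 19695172. The candidate had percentiles of 68.1, 86.5 and 17.1 and IDRs of 0.403, 0.117 and 0.859. Replicate 3 placed it low, and the verm territory held no TACGTG.

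**Figure D3:**
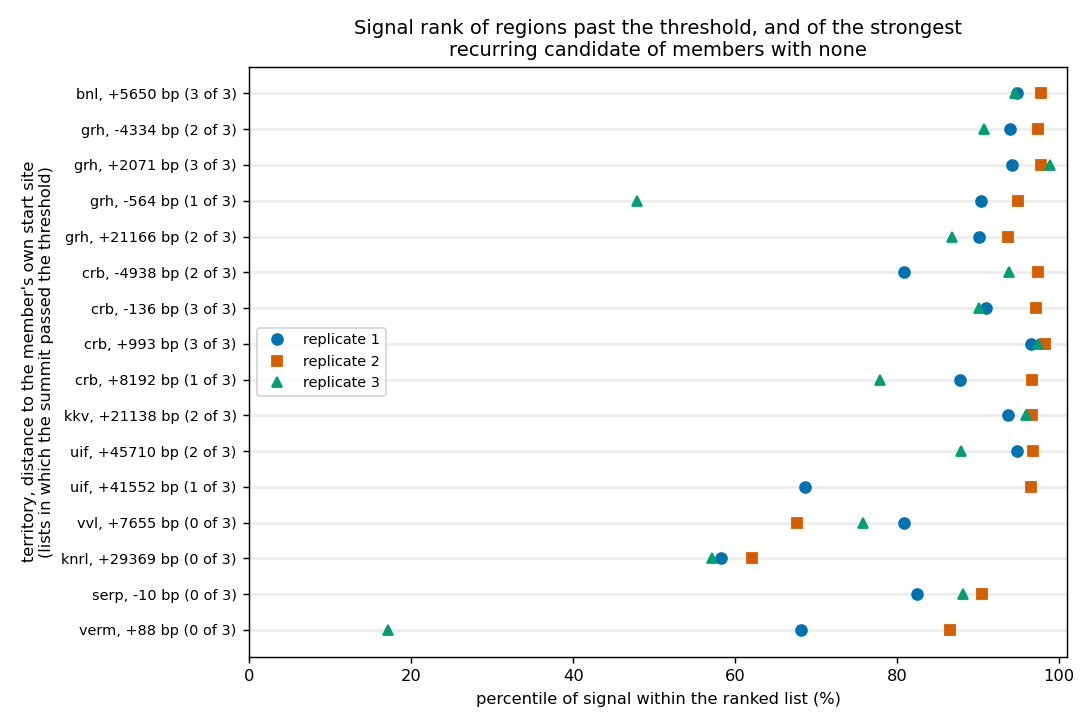
Percentile of signal within each replicate's ranked list (x axis, %) for 12 thresholded regions and for the strongest recurring candidates of vvl, knrl, serp and verm, with the distance to the gene's own start site (bp) and the number of lists in which the region passed the threshold. The crb intron region at +993 bp and the bnl intron region lie at or above the 94.6th percentile in all 3 lists, and the knrl candidate lies between 57.1 and 62.1. A missing symbol means no ranked summit within 150 bp.

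The 9 core regions lay in promoters of coding genes in 4 cases (44.4%, exact 95% interval 13.7 to 78.8%) and in introns in 5 (55.6%, 21.2 to 86.3%), beside 47.9% and 35.7% of all 3463 core regions. None lay in intergenic sequence, where 0 of 9 allows a share of up to 33.3%, beside 14.7% of all core regions. The nearest coding start site was the member's own in 4 of the 9, at bnl, grh and crb (2 regions). The other 5 were nearest to Dhit, Orai, Uck, Polr2F and sip2. Core regions of the territories were present in all 3 lists in 4 of 9 cases (44.4%, 13.7 to 78.8%), beside 65.6% of all core regions. All of these intervals cover counting error only, and each is wide enough to hold the value over all core regions.

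The summit windows of the 9 core regions averaged 31.2% G and C (20 to 48%, median 29%), against 43.2% in the territories as a whole. All core regions averaged 31.1%, so the low G and C content was shared with the rest of the lists. The 26 regions that recurred in all 3 ranked lists away from any thresholded region averaged 45.1%. The core ACGTG, searched on both strands as all motifs were, was absent from the 9 windows. The longer TACGTG, which contains that core, and the related GCGTG were absent too, where 0 of 9 allows a share of up to 33.3%. The core occurred in 5.52%, the longer match in 1.56% and GCGTG in 5.40% of all core regions, so their absence was not detectable as a difference with 9 regions. GATAA was in 1 window (11.1%, beside 24.3% of all core regions), at kkv. TATCGA, which overlaps GATAA in the kkv sequence, was in 2 (22.2%, beside 5.02%), at kkv and at Uck in the crb territory. AACCGGTT, a sequence that Grainy head binds, and ATGCAAAT, the octamer of POU factors, were in none of the 9, beside 0.0866% and 1.91% of all core regions.

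Without regard to peaks, the territories held 75 TACGTG matches, or 19.2 per 100 kb, against 23.3 per 100 kb of the genome. They were unevenly spread, with 16 in the uif territory, 14 in btl, 12 in bnl, 10 each in grh and crb, 5 each in kkv and serp, 2 in vvl, 1 in knrl and 0 in verm. A promoter of 5 of the 10 members (50%) held TACGTG, beside 28.9% of all protein-coding genes. Genes with more start sites have more promoters, and grh had 5 start sites and btl and serp 2 each. The share was not adjusted for this, and no difference was tested. A ranked summit lay within 150 bp in at least 1 list for 31 of the 75 (41.3%, exact 95% interval 30.1 to 53.3%), beside 24.1% over the genome. Most of the summits in the territories were from replicate 2, with 312 against 94 and 113 in replicates 1 and 3, and its part in this share was not tested. A thresholded summit lay that close to 2 of the 75 (2.67%, beside 1.28%), among them the crb intron match, and in at least 2 lists to 0 of the 75, beside 0.714%.

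**Figure D4:**
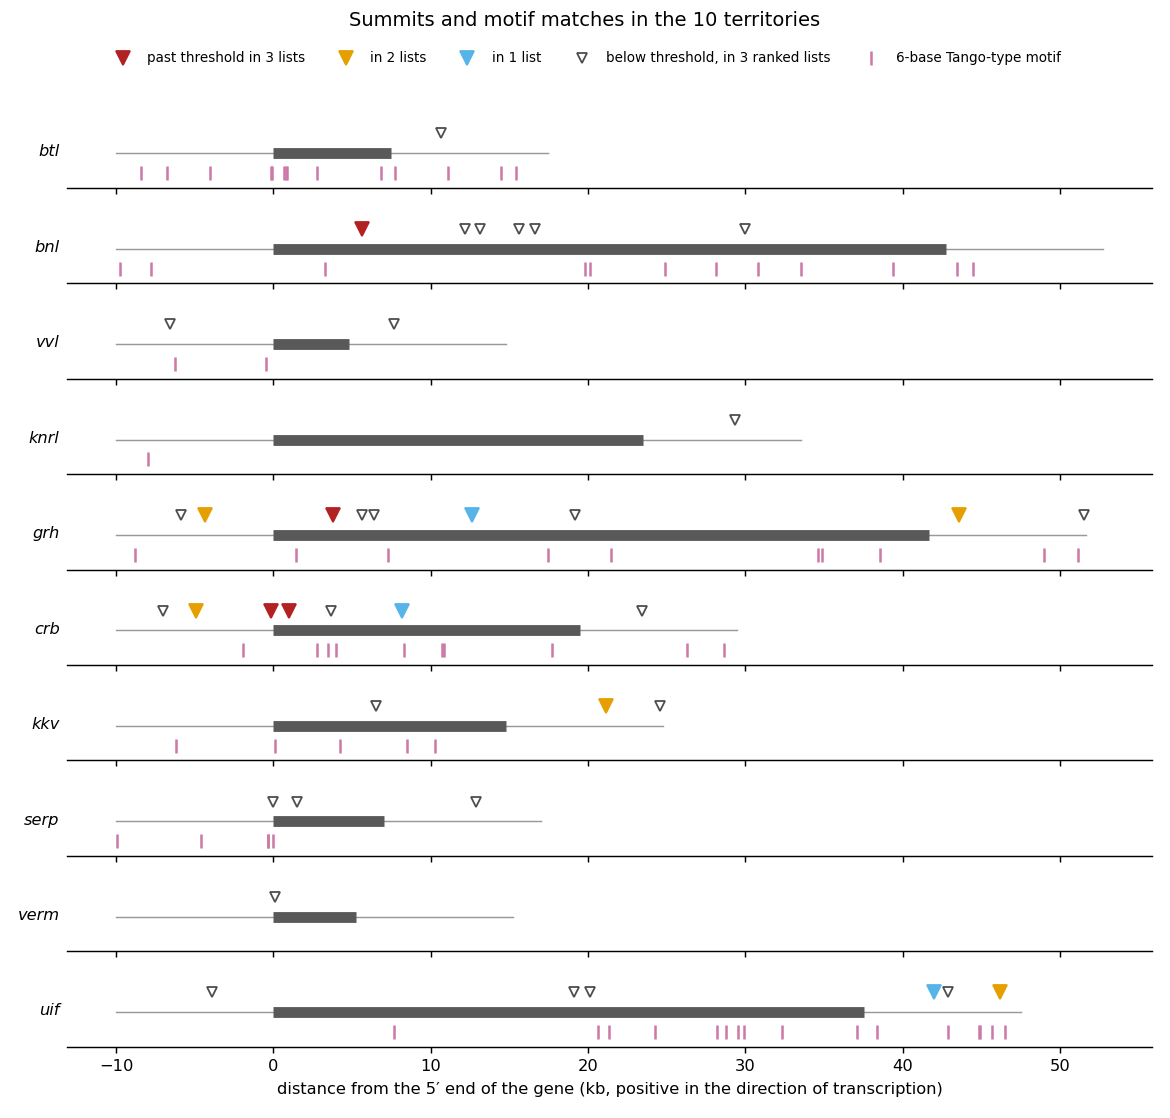
Maps of the 10 territories drawn to scale from the 5′ end of each gene (kb, in the direction of transcription), with the gene body as a thick bar, filled triangles for 12 thresholded regions by the number of lists, open triangles for candidates found in all 3 ranked lists and short bars for TACGTG matches. The regions in all 3 lists lie within or just upstream of bnl, grh and crb, and 5 of the 14 btl matches lie within 1 kb of its start sites.

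The ranked lists, passing peaks included, gave 94, 312 and 113 summits in the territories, or 24.1, 80.0 and 29.0 per 100 kb, against 25.2, 55.2 and 24.1 per 100 kb of the genome. The ratio to the genome was 0.957, 1.45 and 1.203 (1.203 ± 0.247, SD, n = 3), below 1 in replicate 1 and above 1 in replicates 2 and 3. In replicate 2 the territories of btl (47.3 per 100 kb) and knrl (36.8) were below that list's genome density, and the other 8 were above it, led by grh (110) and bnl (107). The btl territory was also below the genome density in replicates 1 and 3, at 14.6 per 100 kb in each. Of the 86, 300 and 107 candidates that missed the threshold, 34, 138 and 44 had the lowest score in the lists. Joined across lists, the territories held 370 ranked regions, and 37 of them (10%) were in all 3 lists, beside 9.98% of all ranked regions. Of these 37, 19 lay in introns, 11 in promoters, 4 in intergenic sequence and 3 in coding exons, and 11 lay within 150 bp of a thresholded region. The shares to set beside these counts, and beside that of candidates at the lowest score, were not computed over the genome. A ranked summit fell in a promoter of the gene's own in all 3 lists for 3 of the 10 members (grh, crb and serp), beside 33% of all genes. ACGTG was in the window of 12.8%, 8.67% and 8.41% of the candidates below the threshold in the territories, against 8.92%, 9.09% and 9.44% of those over the genome.

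A wider list of 39 tracheal genes gave the setting of the 10. Of these, 24 (61.5%) had a core region in the body or within 10 kb, beside 54.9% of all genes, 16 (41.03%) had one in the body or 2 kb upstream, beside 23.1%, and 8 had one in a promoter of their own, beside 16.2%. The shares of all genes were not matched for gene length to the 39, and no difference was tested. Among genes with territories as long as those of the 10 members, 63.7% had a core region within 10 kb. The percentiles that follow are those, in the thresholded lists, of the strongest core region within 10 kb of each gene. Among 11 regulators, 5 had a core region in the body or 2 kb upstream. In a promoter of their own 4 had one, pnt and bs among them, beside 16.2% of all genes. The strongest within 10 kb was that of pnt, an ETS factor of receptor signalling, at a mean percentile of 87.9 ± 5.55 (SD, n = 3), which lay outside the pnt body and next to the start site of Cdc16. It was followed by bs, the serum response factor of terminal branches, at 78.1 ± 6.20, and rib, a BTB-domain factor, at 75.1 ± 10.7. The bs region lay in the bodies of both bs and CG44812. It was 404 bp downstream of the CG44812 start site and 7283 bp downstream of the nearest bs start site.

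Among 6 signalling genes 5 had a core region in the body or 2 kb upstream. In a promoter of their own 2 had one, stumps and N, beside 16.2% of all genes. The strongest within 10 kb was at 89.5 ± 1.63 for N, the Notch receptor (SD, n = 3). For stumps, the adaptor downstream of Breathless, it was at 64.5 ± 3.83 (SD, n = 3), in an intron of CG7987 and 1936 bp upstream of stumps. For sty, the FGF inhibitor Sprouty, it was at 77.0 ± 8.67 (SD, n = 3) in intergenic sequence outside the gene. In the same pathway btl had no core region and bnl stood at 52.9. Of 4 genes of branch fusion and junctions, 2 had a core region in the body or 2 kb upstream: heca (headcase) at 79.8 ± 6.70 (SD, n = 3) and pyd, which encodes the ZO-1 counterpart, at 64.0 in the mean of 2 lists. Of 9 septate junction genes, 2 did: the claudin gene pck, 15 bp upstream of its start at 38.4 ± 17.0, and Atpalpha, the sodium pump subunit, 294 bp upstream at 54.3 ± 24.0 (SD, n = 3 each). Within 10 kb, vari, a MAGUK scaffold gene, had the highest in that group at 89.9 ± 4.28, in an intron of CG9328. It was followed by nrv2, a sodium pump subunit gene, at 71.9 ± 19.9 in the promoter of nrv1 (SD, n = 3), and by Nrx-IV, a neurexin gene, at 57.9 in the mean of 2 lists and next to Atg12. Of 9 luminal and apical matrix genes, 2 had a core region in the body or 2 kb upstream, dpy and mmy. That of dpy, a giant apical matrix protein gene, was in an intron at 67.9 ± 6.45 (SD, n = 3). The strongest within 10 kb of mmy, which makes the chitin precursor, was at 72.02 ± 6.60 (SD, n = 3), 6855 bp upstream of the gene and next to Daxx. For pio, a zona pellucida domain protein gene, the region at 86.3 ± 1.67 was 60 bp upstream of CG4707. None of the 9 matrix genes had a core region in a promoter of its own, beside 16.2% of all genes, and 0 of 9 allows a share of up to 33.3%.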

How the data were processed

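Each of the 3 replicates has a thresholded and a ranked peak list on dm6, which the deposited readme traces to the alignments of that replicate and to a control. Peaks were thus called per replicate. The sources used here name neither aligner nor peak caller, nor which rankings were paired for the IDR. The authors' deposited signal per peak has no stated unit. The deposited score is the scaled IDR, and the deposited ranked lists give the IDR as −log10. The control, alignments and read depths were not used here, so precision is given as the SD over replicates and as exact binomial intervals at 95%, for counting error only. For 0 of 9, the limit of 33.3% is an approximation, 3 of 9, where the exact upper limit is 33.6%. Of the lists made for the whole series, the conservative one served as an alternative and 7 others were set aside.

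Summits within 150 bp were joined by single linkage, and a core region was placed at its summit of highest percentile. Gene models were Ensembl release 115 (BDGP6), whose arm lengths equal those of dm6. Distances to TACGTG are to the middle of its 6 bases, counted from the lower coordinate. The scripts used Python 3.11.15, pandas 2.3.3, numpy 2.4.6, scipy 1.17.1 and matplotlib 3.10.9, and were tested on simulated lists. The 39 wider tracheal genes all matched by symbol or synonym. No p-value was computed. A thresholded region of 1 list in the btl territory is counted but not reported further here. The rule for named genes takes every member, every core region of a territory, the strongest recurring candidate of a member without a thresholded summit, and up to 3 genes per group of the wider list by mean percentile. Atpalpha, pck, single-list regions and further candidates of members were named beyond that rule, after their values were seen. The members and lists were chosen with earlier results of these data known.

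Alternatives were support by all 3 lists, by any list or by the conservative list, joining at 50 and 300 bp, territories of 5 kb on either side or of the body and 2 kb upstream, each replicate left out, peaks above the median signal, other promoter limits, and windows of 50 and 200 bp.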

Additional observations from a re-analysis of the deposited data

How the results depend on the processing

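The 9 core regions fell to 4 when all 3 lists were required, to 4 in the body and 2 kb upstream, and to 3 with peaks above the median signal. The 5 members with one fell to 3 under each of these and with 5 kb on either side. The 4 promoter regions became 1 with all 3 lists, 7 with any list, 7 with the conservative list, 1 in the body and 2 kb upstream, 2 with 5 kb on either side and 0 above the median signal. Leaving out each replicate gave 4 to 7 core regions, 3 to 4 members and 1 to 3 promoter regions, the lowest each time without replicate 2. The mean G and C content of 31.2% was 25.7% above the median signal and 27.4 to 34% with each replicate left out. The ratio of thresholded density to the genome's was 0.741 to 0.836 with each replicate left out. The lists share regions, so these values are not independent, and a difference from 1 was not tested. The share of core regions with ACGTG was 0 in the main result and 7.69% with any list or with the conservative list. With 9 regions and fixed-width peaks, shares have wide intervals and motif distances are coarse.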

Other observations

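Of the 37 regions found in all 3 ranked lists of the territories, 2 had ACGTG in the summit window. This count was made after the values were seen. The share over all regions found in all 3 ranked lists was not computed. ACGTG was in 5.52% of all core regions. Among all candidates below the threshold it was in 8.92%, 9.09% and 9.44% in replicates 1, 2 and 3. Besides the region at the serp start site, the other lay in the crb territory, 67 bp upstream of Nab2, a gene for a polyadenosine RNA-binding protein. Its summit was at 24318486 on 3R, and its window also held TATCGA. Its percentiles in the ranked lists were 82.5, 92.5 and 91.9 (89.0 ± 5.598, SD, n = 3). Its IDRs were 0.731, 0.0804 and 0.190, so it missed the threshold in every replicate.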
